A study of Rattus norvegicus with 4 samples.

Results

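The acidic compartments of the cell were followed through 56 genes, out of 22250 in the count files, in cardiomyocytes treated with an siRNA against Cpeb4, which encodes an RNA-binding protein that recognises cytoplasmic polyadenylation elements in mRNAs. Genes were taken whose symbol starts with Atp6v or Atp6ap, the 25 genes named for the vacuolar proton pump, together with 31 listed genes of the lysosome and of autophagy. The listed genes are 9 lysosomal hydrolases, 7 membrane and lipid-handling proteins of the lysosome, and 15 genes of autophagy and its transcriptional control. Ribosome footprints, the stretches of mRNA that ribosomes shield from RNase I, had been recovered from sucrose gradient fractions of ventricular cardiomyocytes of newborn Wistar rats aged 1 to 2 days. There were 2 libraries from cells given CPEB4 siRNA (called siCpeb4) and 2 from cells given Control siRNA (siControl), in each case for 72 h. The growth protocol also mentions mTORC1 inhibition with 250 nM Torin1 for 24 h without naming the samples, so whether these cells received it is not stated in the sources used here. mTORC1 is a kinase complex that restrains autophagy and lysosomal gene transcription. Separate cultures are not stated for the replicates, so the spread behind each p-value is that of these libraries and may be technical. Cells were purified by percoll gradient, a primary preparation that can hold other cardiac cells, and the siRNA lowered Cpeb4 without removing it.

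The vacuolar ATPase is a rotary pump that moves protons into lysosomes, endosomes and the Golgi. Its cytosolic V1 sector hydrolyses ATP and turns a central shaft, peripheral stalks hold the catalytic head still, and the membrane V0 sector carries the protons across. The low pH it creates activates the hydrolases that digest material delivered by endocytosis and by autophagy, the pathway that wraps cytoplasm in a double membrane and fuses it with the lysosome. In heart muscle, autophagy removes worn mitochondria and protein aggregates, and inherited loss of the lysosomal enzyme GAA or of the membrane protein LAMP2 causes cardiomyopathy.

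Gene counts summed to between 3554011 and 5910911 footprints per library. Levels are given in CPM, a gene's count per 1000000 footprints counted in genes of that library. No RNA-seq was used here, so mRNA level and ribosomes per mRNA cannot be told apart in a footprint count. The siRNA target, Cpeb4, had 40 and 59 counts in siCpeb4 libraries, against 351 and 253 in siControl libraries (log2 fold change -2.86 ± 0.17 SE, edgeR adjusted p = 1.57e-09). All 10 cardiomyocyte markers were tested and none was called (edgeR, 2 with an unadjusted p under 0.05), with summed levels of 86531.3 and 81786.4 CPM in siCpeb4 libraries and 75900.4 and 80954.7 CPM in siControl libraries. Markers of other cells were present in every library. The 5 smooth muscle markers summed to 5730.2 and 6086.2 CPM in siCpeb4 libraries, against 5389.8 and 5445.1 CPM in siControl libraries. The 5 endothelial markers found summed to 115.4 and 121.6 CPM in siCpeb4 libraries, against 141.2 and 114.5 CPM in siControl libraries. No gene of these lists was called (edgeR). The 8 fibroblast markers summed to 9711.8 and 9170.0 CPM in siCpeb4 libraries, against 13079.4 and 12047.5 CPM in siControl libraries, and 1 of 7 tested, Col1a1, fell (edgeR, 4 with an unadjusted p under 0.05). Of these 7, 6 had negative log2 fold changes, and their median was -0.25. Over all genes tested, 16.1% had an unadjusted edgeR p under 0.05. The 12 macrophage markers summed to 749.0 and 897.3 CPM in siCpeb4 libraries, against 992.9 and 724.5 CPM in siControl libraries, and none of the 12 was called (edgeR, 3 with an unadjusted p under 0.05) or stood at 0. In bulk libraries, fewer cells of a type and less RNA per cell cannot be told apart. A gene listed at 0 is not shown to be silent, since the collagen gene Col1a2 was listed at 0 in all 4 libraries beside a Col1a1 level of 5374 to 8586 CPM.

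Of the whole group, 2 genes of the proton pump passed the test. Footprints fell on Atp6v1e1, the E subunit of the peripheral stalks, and on Atp6ap1, an accessory protein (also called Ac45) that takes part in assembly of the pump. Of the 56 genes, 49 passed the low-count filter and were tested. Of these, 2 fell and none rose at an adjusted p under 0.05 (edgeR quasi-likelihood test, Benjamini-Hochberg adjustment over all 11335 genes tested). That is 4.08% of those tested, a share close to the 3.41% called among all genes. Among all genes, 1.87% fell and 1.54% rose. The other 47 members had log2 fold changes with a median of -0.05, against -0.003 over all genes tested.

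Atp6v1e1 (ENSRNOG00000011905) had 97.4 and 107 CPM in siCpeb4 libraries, from 476 and 632 counts, against 189.5 and 186 CPM in siControl libraries, from 1111 and 661 counts. Both siCpeb4 libraries lay far below both siControl libraries, and the replicates of each group were close together. The mean was 102 ± 6.76 CPM in siCpeb4 cells and 188 ± 2.46 CPM in siControl cells (SD, n = 2 each). The fitted log2 fold change was -0.91 ± 0.11 (SE), 46.7% lower, with an adjusted p of 2.49e-05 (edgeR) that ranked 17 among all genes tested.

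Atp6ap1 (ENSRNOG00000054352) had 215 and 231 CPM in siCpeb4 libraries, from 1053 and 1368 counts, against 375 and 409 CPM in siControl libraries, from 2197 and 1455 counts. Both siCpeb4 libraries again lay far below both siControl libraries. The mean was 223 ± 11.4 CPM in siCpeb4 cells and 392.0 ± 24.6 CPM in siControl cells (SD, n = 2 each), and the log2 fold change was -0.84 ± 0.10 (SE), 44.1% lower (edgeR adjusted p = 3.31e-05, rank 19). Of all genes tested, 1.68% had a log2 fold change at or below that of Atp6ap1. Both calls held in every alternative fit, including each fit without 1 library, where adjusted p reached at most 0.000609 for Atp6v1e1 and 0.000787 for Atp6ap1 (edgeR). The summed fibroblast markers were also lower in both siCpeb4 libraries, with 6 of 7 tested negative. Col1a1 weighed most in that sum, with means of 5723 CPM in siCpeb4 and 8227 CPM in siControl libraries. Groups did not overlap for Col1a1, Col3a1 and Pdgfra, but overlapped for Postn, Dcn, Lum and Tcf21, of which Tcf21 was positive (0.10). The part of the fibroblast markers in the decreases of Atp6v1e1 and Atp6ap1 was not tested.

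**Figure D1:**
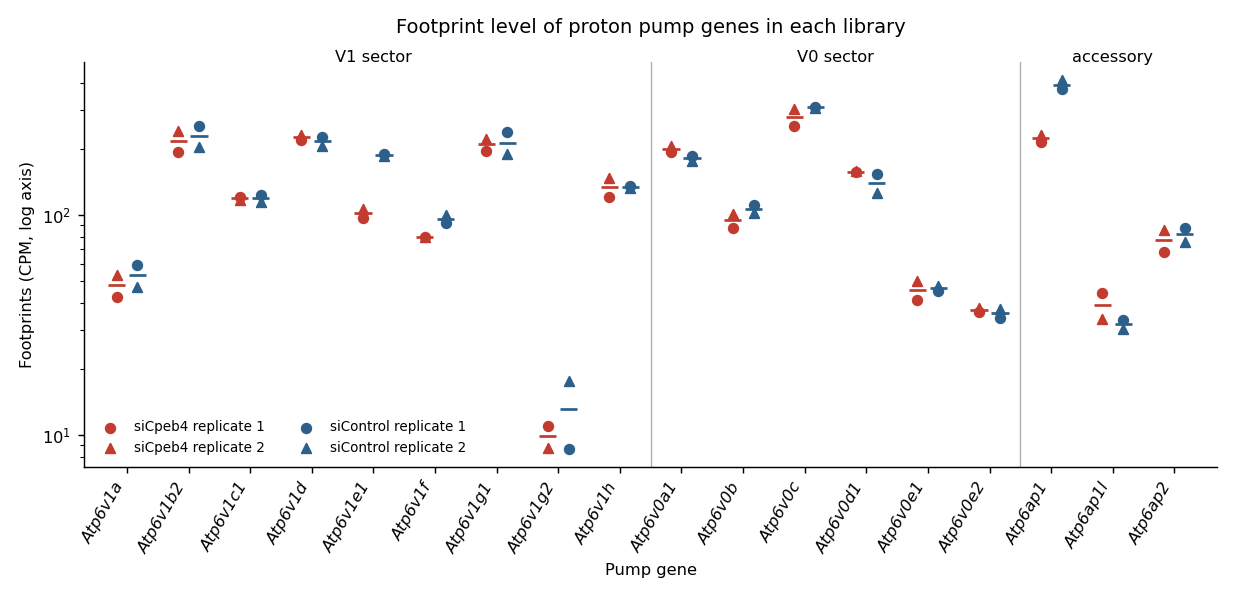
Footprint level in CPM (log axis) of 18 tested pump genes, grouped as V1 sector, V0 sector and accessory proteins, with siCpeb4 libraries in red to the left and siControl libraries in blue to the right; circles are replicate 1, triangles replicate 2 and bars the means of 2 libraries. Atp6v1e1 at 97.4 and 107 CPM and Atp6ap1 at 215 and 231 CPM in siCpeb4 libraries stand clear of their siControl values, while most other subunits overlap or nearly touch; Atp6v0d2, at 3.92 CPM or less, is left out.

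Neither gene overlaps another annotated gene in the RefSeq table for GRCr8, whereas 23 of the 55 members found there do. That table was used for names and neighbours only, since the counts were made on Rnor_6.0. The promoter windows of both genes (RefSeq, build GRCr8, 250 bases before to 50 after the annotated start) are shown because both genes fell. Capitals mark 4 motifs, each searched on both strands. The CCAAT box was searched by those letters. The GC box was searched as GGGCGG, and an ETS-factor site as CCGGAAG. The TATA box was searched as TATAAA. The Atp6v1e1 window lies at chr4:155716611-155716910 on the minus strand and the Atp6ap1 window at chrX:157230993-157231292 on the plus strand.
Atp6v1e1: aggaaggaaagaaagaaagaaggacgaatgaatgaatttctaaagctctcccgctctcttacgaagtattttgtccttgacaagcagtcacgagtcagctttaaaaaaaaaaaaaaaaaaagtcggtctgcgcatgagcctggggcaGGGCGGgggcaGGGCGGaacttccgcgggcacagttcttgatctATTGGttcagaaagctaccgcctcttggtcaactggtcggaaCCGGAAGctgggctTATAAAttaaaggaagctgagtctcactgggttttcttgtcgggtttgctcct
Atp6ap1: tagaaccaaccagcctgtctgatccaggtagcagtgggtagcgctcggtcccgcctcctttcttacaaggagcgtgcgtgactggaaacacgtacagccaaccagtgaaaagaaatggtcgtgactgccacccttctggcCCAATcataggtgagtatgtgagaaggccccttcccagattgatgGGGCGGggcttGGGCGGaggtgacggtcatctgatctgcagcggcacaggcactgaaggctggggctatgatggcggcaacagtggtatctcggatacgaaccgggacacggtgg

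Both windows hold a CCAAT box and GC boxes, which are common letters. CCAAT occurs in 38.0% of 21842 protein-coding promoter windows and GGGCGG in 41.8%. The Atp6v1e1 window also holds CCGGAAG, found in 10.7% of windows, and TATAAA, found in 2843 of the 21842. Neither window holds CACGTG, the core of the element that TFEB and TFE3 bind in lysosomal promoters.

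That core was present in the windows of 8 of the 45 members with a promoter entry (17.8%), against 7.01% of all windows. Among pump genes alone it was present in 2 of 19 windows, so most pump windows lack it. The longer palindrome TCACGTGA, which contains the core, was present in 5 members (11.1%), against 1.02% of all windows. The 5 members are shown with 20 bases around the palindrome, the core in capitals. None of them was called, which was the case for 47 of the 49 members tested. Lamp1 holds the palindrome at 2 places, of which the nearer to the start is printed.
Atp6v0d1: ttgtggtCACGTGagatgca
Atp6v0e1: cgccggtCACGTGagcctct
Ctsd: cgcgtctCACGTGacccgtt
Lamp1: cactgttCACGTGacaggcg
Mcoln1: ccccgctCACGTGaccgcgg

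These 5 genes had log2 fold changes of 0.13 ± 0.11 for Atp6v0d1, -0.05 ± 0.14 for Atp6v0e1, -0.12 ± 0.12 for Ctsd, 0.02 ± 0.10 for Lamp1 and 0.14 ± 0.16 for Mcoln1 (SE). The 95% interval of each of the 5 included 0. A match of letters is a description of the window and does not show that a factor binds there.

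In the V1 sector, 9 of 14 genes were tested. Apart from Atp6v1e1, the 8 others had a median log2 fold change of -0.08. Atp6v1g1 encodes the G subunit that pairs with E in each peripheral stalk. It had 197 and 223 CPM in siCpeb4 libraries, against 238 and 189.6 CPM in siControl libraries, so the groups overlapped. Its log2 fold change was -0.06, with a 95% interval of -0.30 to 0.18. Atp6v1c1, the C subunit that joins the stalks to the membrane sector, had 121.5 and 117.1 CPM in siCpeb4 libraries and 124.1 and 114.5 CPM in siControl libraries.

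The catalytic head was measured through its B and A subunits. Atp6v1b2, the B subunit of heart and most other tissues, had 194 and 242 CPM in siCpeb4 libraries, against 254 and 205 CPM in siControl libraries. The catalytic A subunit, Atp6v1a, had 42.3 and 53.6 CPM in siCpeb4 libraries, against 59.7 and 47.0 CPM in siControl libraries. In both genes siControl replicate 1 was highest and siCpeb4 replicate 1 lowest, with overlap between the groups.

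The shaft subunit Atp6v1d had a log2 fold change of 0.03 ± 0.10 (SE) and the regulatory H subunit, Atp6v1h, one of -0.02 ± 0.11. Atp6v1f, the other shaft subunit, had the next smallest p in the pump, with 79.4 and 79.9 CPM in siCpeb4 libraries, against 92.6 and 100 CPM in siControl libraries. Its groups did not overlap, but its log2 fold change of -0.30 ± 0.12 (SE) did not pass (edgeR adjusted p = 0.18). The brain-enriched G isoform Atp6v1g2 had 51 to 63 counts per library and overlapping groups. Of the isoforms known from kidney or testis, Atp6v1b1, Atp6v1e2 and Atp6v1g3 were listed at 0 in all 4 libraries, and Atp6v1c2 had 0 and 2 counts in siCpeb4 libraries and 7 and 1 in siControl libraries. Atp6v1fnb, which fits the symbol rule but is named for a neighbouring gene, was also listed at 0.

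Within the pump, the shares of the 2 called genes can be read without any scaling of libraries. They come from the same counts as the calls, so they describe these decreases and do not test them again. Atp6v1e1 took 8.99% (95% interval 8.23 to 9.79) and 8.83% (8.19 to 9.51) of all V1 footprints in siCpeb4 libraries. In siControl libraries it took 14.3% (13.5 to 15.1) and 15.5% (14.4 to 16.6). Atp6ap1 took 9.88% (9.32 to 10.5) and 9.55% (9.07 to 10.04) of all pump footprints in siCpeb4 libraries, against 14.02% (13.5 to 14.6) and 16.3% (15.5 to 17.1) in siControl libraries. These are exact binomial intervals, which cover counting error only. A share also depends on transcript length, so it is compared between libraries and not between genes. Without these 2 genes, the pump footprints summed to 1867.8 and 2085.6 CPM in siCpeb4 libraries and to 2108.0 and 1918.4 CPM in siControl libraries, with overlap between the groups.

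**Figure D2:**
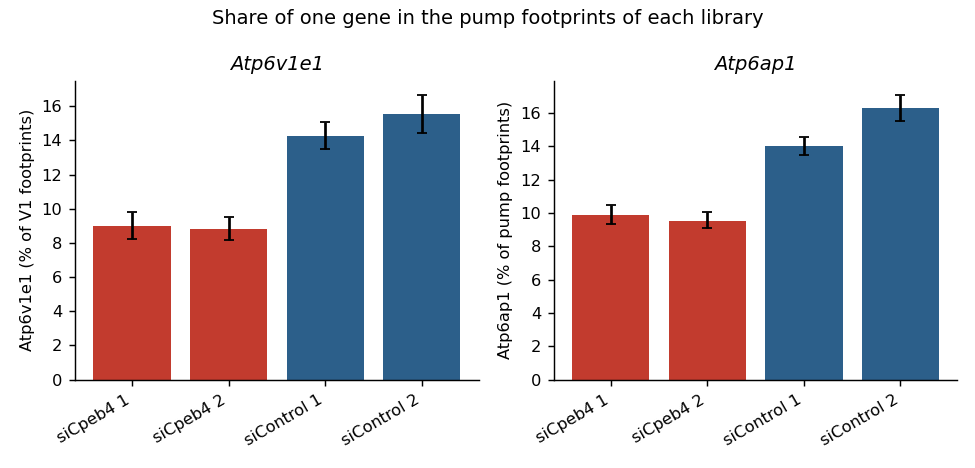
Bars starting at 0 give the percent of V1 sector footprints on Atp6v1e1 (left) and of all pump footprints on Atp6ap1 (right) in each library, siCpeb4 in red and siControl in blue, with exact 95% binomial intervals. The highest siCpeb4 bars, 8.99% and 9.88%, lie below the lowest siControl bars, 14.3% and 14.02%.

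The membrane V0 sector showed no called change among 7 of 8 genes tested (edgeR), of which 1 had an unadjusted p under 0.05. Over all genes tested, edgeR called 3.41%, and 16.1% had an unadjusted p under 0.05. The genes of the proton-carrying ring, Atp6v0c and Atp6v0b, had negative values that did not pass. Atp6v0c had 254 and 305 CPM in siCpeb4 libraries, against 311 and 308 CPM in siControl libraries, with a log2 fold change of -0.18 ± 0.11 (SE, edgeR adjusted p = 0.45). Atp6v0b had a log2 fold change of -0.21 ± 0.12 (SE, edgeR adjusted p = 0.42). In both genes the groups were separated by less than the spread between siCpeb4 replicates.

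The subunits that connect the membrane sector with V1 had positive values that did not pass. Atp6v0a1 had 193.5 and 207.1 CPM in siCpeb4 libraries, against 186.4 and 176.7 CPM in siControl libraries. Atp6v0d1 had 156.9 and 158.4 CPM in siCpeb4 libraries, against 154.5 and 126.3 CPM in siControl libraries. Their log2 fold changes were 0.11 ± 0.10 and 0.13 ± 0.11 (SE). Atp6v0e1 and Atp6v0e2, which encode the small e subunit, lay at -0.05 ± 0.14 and 0.02 ± 0.15. The kidney isoform Atp6v0a4 had 1 count in all.

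The d2 isoform of the V0 sector, Atp6v0d2, best known from osteoclasts and macrophages, was the member with the fewest footprints that was tested. It had 0 and 13 counts in siCpeb4 libraries, against 23 and 7 in siControl libraries, so the groups overlapped. Its log2 fold change of -1.41 ± 0.66 (SE) did not pass with all libraries (edgeR adjusted p = 0.30). Without siCpeb4 replicate 2 it was called (adjusted p = 0.027), since the siCpeb4 library left was the one at 0 counts. With 1 library left out, its log2 fold change was -0.54 without siCpeb4 replicate 1, -0.76 without siControl replicate 1 and -1.73 without siControl replicate 2. Among its alternatives, adjusted p ran from 0.027 to 0.88, and DESeq2 gave none.

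Of the 3 accessory genes, Atp6ap1 was the one called. Atp6ap2, the prorenin receptor, had 67.9 and 85.9 CPM in siCpeb4 libraries, against 87.8 and 75.7 CPM in siControl libraries, a log2 fold change of -0.12 with a 95% interval of -0.39 to 0.15. Atp6ap1l, a gene related to Atp6ap1, had 44.4 and 33.7 CPM in siCpeb4 libraries and 33.4 and 30.4 CPM in siControl libraries, a log2 fold change of 0.25 ± 0.16 (SE, edgeR adjusted p = 0.49). That value was 0.03 without siCpeb4 replicate 1 and 0.45 without siCpeb4 replicate 2. The 95% intervals of Atp6ap2 and Atp6ap1l, reaching down to -0.39 and -0.09, do not include the -0.84 fitted for Atp6ap1. The difference between these genes was not tested.

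**Figure D3:**
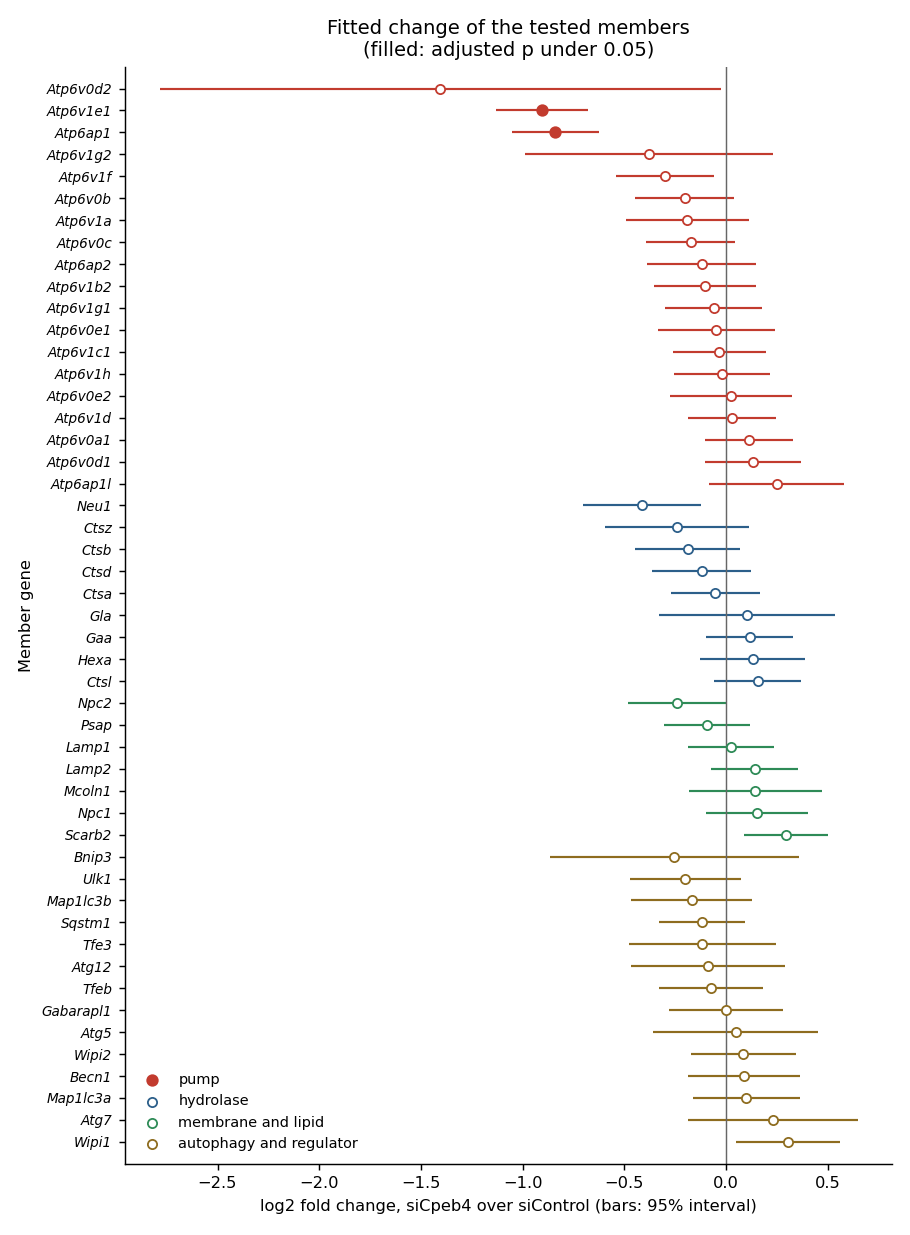
Fitted log2 fold change (siCpeb4 over siControl) of the 49 tested genes, with 95% intervals, ordered within pump, hydrolase, membrane and lipid, and autophagy groups; filled points have an adjusted p under 0.05. Atp6v1e1 at -0.91 and Atp6ap1 at -0.84 are the 2 filled points, and the wide interval at the top belongs to Atp6v0d2.

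None of the 9 lysosomal hydrolases was called by edgeR, by DESeq2 (2.64% called among genes it gave an adjusted p, which leaves out Gla) or by limma-voom (3.31% called), and 1 had an unadjusted edgeR p under 0.05. Over all genes tested, edgeR called 3.41%, and 16.1% had an unadjusted p under 0.05. The median log2 fold change of the 9 hydrolases was -0.05. The smallest p was that of Neu1, the sialidase that trims sialic acids from glycoproteins. Neu1 had 40.3 and 40.4 CPM in siCpeb4 libraries, against 58.0 and 46.4 CPM in siControl libraries. The siCpeb4 libraries were nearly equal and both lay under the controls, but the controls spread widely, and the log2 fold change of -0.41 ± 0.14 (SE) did not pass (edgeR adjusted p = 0.11).

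Of the cathepsins, the proteases of the lysosome, Ctsd, Ctsb and Ctsz varied more between replicates than between groups. Ctsd, an aspartic protease with the most footprints among the hydrolases, had 931 and 1163 CPM in siCpeb4 libraries, against 1245 and 984 CPM in siControl libraries. The cysteine protease Ctsb had 761 and 891 CPM in siCpeb4 libraries, against 1076 and 767 CPM in siControl libraries. Ctsz, another cysteine protease, had 88.6 and 131 CPM in siCpeb4 libraries and 156 and 96.2 CPM in siControl libraries. In all 3 genes siControl replicate 1 was the highest library, siCpeb4 replicate 2 the second, and the groups overlapped.

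The summed macrophage markers had the same first and second library, at 992.9 CPM in siControl replicate 1 and 897.3 CPM in siCpeb4 replicate 2. Of the 12 markers, 6 had that order, among them Lyz2 and Cd68. The other 6 were highest in a siCpeb4 library, C1qa, C1qb, C1qc and Cd163 in replicate 1, and Ptprc and Cd14 in replicate 2. The median log2 fold change of the 12 was 0.07, with 4 negative. Macrophages carry many of these proteases, and the part of the macrophage markers in the cathepsin values was not tested. Without siControl replicate 1, the log2 fold change of Ctsz was 0.15, against -0.24 with all libraries. Ctsl had 717 and 814 CPM in siCpeb4 libraries, against 716 and 631 CPM in siControl libraries, and a log2 fold change of 0.15 ± 0.10 (SE, edgeR adjusted p = 0.50). The groups of Ctsl were separated by less than 1 CPM.

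Among the 9 listed hydrolases, those of glycogen and of glycolipids had 95% intervals that included 0. Gaa, the glycogen-degrading glucosidase, had 215 and 218 CPM in siCpeb4 libraries and 198 and 193 CPM in siControl libraries, a log2 fold change of 0.11 with a 95% interval of -0.10 to 0.33. Hexa, a subunit of the enzyme that degrades gangliosides, lay at 0.13 ± 0.12 (SE), and Gla, the galactosidase lost in Fabry disease, at 0.10 ± 0.21 from 56 to 108 counts per library. Ctsa, the protective protein that keeps NEU1 and a galactosidase stable, lay at -0.05 ± 0.11.

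Proteins of the lysosomal membrane and of lipid export were not called either. Of 7 tested, 1 (14.3%) had an unadjusted edgeR p under 0.05, against 16.1% of all genes, and their median log2 fold change was 0.14. Scarb2, also known as LIMP-2, carries the enzyme glucocerebrosidase to the lysosome. It had 347.5 and 356.1 CPM in siCpeb4 libraries, against 289.6 and 272.1 CPM in siControl libraries. Both siCpeb4 libraries were higher by more than the spread within either group, yet the log2 fold change of 0.29 ± 0.10 (SE) did not pass (edgeR adjusted p = 0.12, and 0.081 to 0.51 over the alternatives). It lay between 0.26 and 0.33 with any 1 library left out.

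Npc2 and Npc1 hand cholesterol out of the lysosome in sequence, the first in the lumen and the second in the membrane. Npc2 had 124 and 157 CPM in siCpeb4 libraries, against 167 and 158 CPM in siControl libraries, a log2 fold change of -0.24 ± 0.12 (SE, edgeR adjusted p = 0.32). Npc1 had 73.8 and 82.4 CPM in siCpeb4 libraries, against 71.3 and 66.4 CPM in siControl libraries, a log2 fold change of 0.15 ± 0.12 (SE, edgeR adjusted p = 0.59). The signs of the pair were opposite, and neither passed.

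The glycoproteins of the lysosomal membrane and the saposin precursor gave values near those of controls. Lamp2 had 417 and 497 CPM in siCpeb4 libraries, against 416 and 397 CPM in siControl libraries, and only siCpeb4 replicate 2 stood apart. Lamp1 had 627 and 695 CPM in siCpeb4 libraries and 678 and 597 CPM in siControl libraries. Psap, the precursor of saposins that help lipid hydrolases, had 1885 and 2008 CPM in siCpeb4 libraries, against 2181 and 1885 CPM in siControl libraries. The calcium channel Mcoln1 lay between 28.5 and 37.1 CPM in all 4 libraries.

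**Figure D4:**
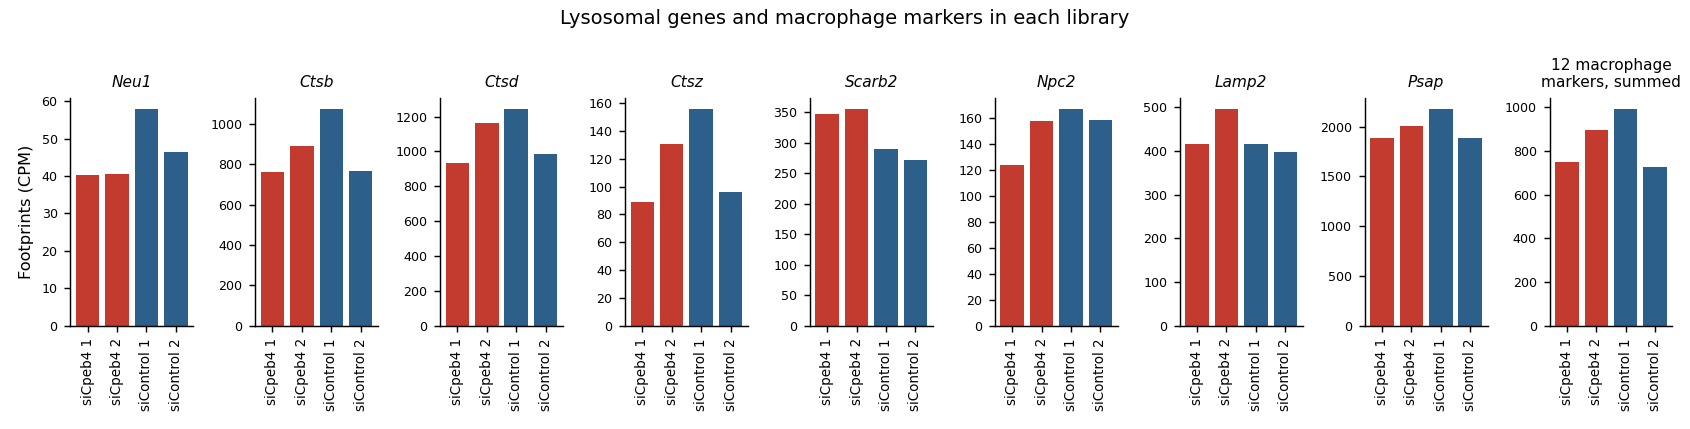
Footprint level in CPM, bars starting at 0, of 8 lysosomal genes and of 12 summed macrophage markers in each library, siCpeb4 in red and siControl in blue. Scarb2 is higher in both siCpeb4 libraries (347.5 and 356.1 CPM, against 289.6 and 272.1 CPM), whereas Ctsb, Ctsd, Ctsz and the summed macrophage markers are highest in siControl replicate 1.

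In autophagy, 14 of 15 genes were tested. None was called by edgeR, limma-voom or DESeq2, which gave no adjusted p for Bnip3. Over all genes tested, edgeR called 3.41%. An unadjusted edgeR p under 0.05 was found for 1 of the 14 (7.14%), against 16.1% of all genes. The 14 genes were followed from initiation to cargo. Ulk1, the kinase that starts autophagosome formation, had 60.7 and 52.1 CPM in siCpeb4 libraries, against 61.2 and 66.1 CPM in siControl libraries, a log2 fold change of -0.20 ± 0.13 (SE, edgeR adjusted p = 0.49). Becn1, a subunit of the lipid kinase complex that acts next, lay at 0.09 ± 0.13. Wipi1 and Wipi2 bind the lipid this complex makes. Wipi1 had 75.7 and 70.9 CPM in siCpeb4 libraries, against 58.2 and 58.0 CPM in siControl libraries. Its groups did not overlap, and it had the smallest p of the autophagy genes, but its log2 fold change of 0.31 ± 0.12 (SE) did not pass (edgeR adjusted p = 0.21, and 0.17 to 0.62 over the alternatives). Wipi2 lay at 0.08 ± 0.12.

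The conjugation enzymes had few footprints. Atg7, which activates the ubiquitin-like proteins, had 93 and 138 counts in siCpeb4 libraries and 117 and 53 in siControl libraries. Atg12 and Atg5, which are joined to each other, had log2 fold changes of -0.09 ± 0.18 and 0.05 ± 0.20 (SE). Their standard errors are larger than those of the abundant lysosomal genes.

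The ubiquitin-like proteins that coat the autophagosome were measured for 3 of 4 members. Map1lc3b had 55.8 and 43.5 CPM in siCpeb4 libraries, against 57.3 and 51.2 CPM in siControl libraries, a log2 fold change of -0.17 ± 0.14 (SE, edgeR adjusted p = 0.62). Map1lc3a had 265 and 199 CPM in siCpeb4 libraries and 230 and 193 CPM in siControl libraries, with more spread within groups than between them. Gabarapl1 lay at -0.0007 ± 0.13 (SE). Gabarapl2 was listed at 0 in all 4 libraries.

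Of the cargo receptors, Sqstm1, known as p62, had the most footprints among the 15 listed genes of autophagy and its control. It had 349 and 315 CPM in siCpeb4 libraries, against 359 and 347 CPM in siControl libraries, a log2 fold change of -0.12 with a 95% interval of -0.33 to 0.09. Bnip3, a receptor for mitochondria that hypoxia induces, had 31 to 64 counts per library. The transcription factors Tfeb and Tfe3, which switch on lysosomal genes, lay at -0.07 ± 0.12 and -0.12 ± 0.17 (SE), with overlap between the groups.

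The precision of these values depended on the footprint level. For the 39 uncalled members with a mean of 30 CPM or more, standard errors of the log2 fold change ran from 0.10 to 0.17, and every 95% interval lay between -0.70 and 0.58. A decrease as large as that of Atp6v1e1 or Atp6ap1 was therefore outside the interval of each of these 39 genes, while smaller changes were not resolved. Uncalled members under 30 CPM, among them the conjugation enzymes of autophagy, had larger standard errors. The intervals of Bnip3, Atp6v1g2 and Atp6v0d2 reached down to -0.87, -0.99 and -2.78, past the value of Atp6ap1. Groups did not overlap in 18 of the 49 members tested (36.7%), against 46% of all genes tested, and an unadjusted p under 0.05 was found for 7 (14.3%), against 16.1%.

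Further genes of the same pathways, taken from lists by function, held 3 calls among 104 genes tested in 5 lists. That is 2.88%, a share near the 3.41% called among all genes, of which 1.54% rose. Of 34 other hydrolases tested, 16 had negative log2 fold changes and 4 had an unadjusted edgeR p under 0.05. The lowest value was that of Galc, with 7.36 and 5.92 CPM in siCpeb4 libraries, against 11.6 and 12.1 CPM in siControl libraries. Its log2 fold change of -0.87 ± 0.27 (SE), from 35 to 68 counts per library, did not pass (edgeR adjusted p = 0.081). Of the 34, 1 rose and none fell at an adjusted p under 0.05. This was Ctsh, an aminopeptidase of the cathepsin family, with 177 and 209 CPM in siCpeb4 libraries, against 108 and 107 CPM in siControl libraries. Its groups were well separated, and its log2 fold change was 0.81 ± 0.11 (SE, edgeR adjusted p = 0.000138, at most 0.0041 over the alternatives).

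Of 40 other autophagy genes tested, 2 rose and none fell in the main edgeR fit, where 1.54% of all genes rose and 1.87% fell. Vmp1, a membrane protein that moves lipids during autophagosome formation, had 45.6 and 58.7 CPM in siCpeb4 libraries, against 30.7 and 28.7 CPM in siControl libraries. Its log2 fold change was 0.78 ± 0.15 (SE, edgeR adjusted p = 0.00353), and the call ended without siCpeb4 replicate 2 (adjusted p = 0.075). Wdr45b, a relative of Wipi1 and Wipi2 also named WIPI3, had 74.7 and 72.6 CPM in siCpeb4 libraries, against 53.55 and 52.34 CPM in siControl libraries. Its log2 fold change was 0.44 ± 0.12 (SE, edgeR adjusted p = 0.0486). That call ended in DESeq2 (adjusted p = 0.24), in limma-voom (0.059), with RLE scaling (edgeR, 0.0504) and with any 1 library left out (edgeR, 0.096 to 0.26).

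Other parts of the pathway held no call in the main edgeR fit. Over all genes, that fit called 3.41% and gave 16.1% an unadjusted p under 0.05. Of 7 further genes of pump subunits and assembly factors tested, none had an unadjusted p under 0.05. Tcirg1, the a3 isoform known from osteoclasts, had 29.25 and 46.02 CPM in siCpeb4 libraries, against 51.3 and 40.8 CPM in siControl libraries, and Rogdi lay at -0.20 ± 0.13 (SE). Of 15 further lysosomal membrane genes, 3 had an unadjusted p under 0.05. Tmem106b had a log2 fold change of 0.45 ± 0.13 (SE, edgeR adjusted p = 0.0588), and was called without siCpeb4 replicate 1 (0.025), with upper-quartile scaling (0.048) and with no filter on counts (0.022), and a replicate block gave 0.049. The transporter gene Mfsd8 lay at -0.51 ± 0.20 (edgeR adjusted p = 0.18). Of 8 genes that sort enzymes to the lysosome, 1 had an unadjusted p under 0.05. Gnptab, a subunit of the enzyme that makes the mannose 6-phosphate tag, lay at 0.42 ± 0.15 (SE, edgeR adjusted p = 0.14), and was called without siCpeb4 replicate 1 (0.036). The sorting receptor Sort1 lay at 0.19 ± 0.10. Medians of the 5 lists ran from -0.10 for pump assembly to 0.06 for enzyme sorting.

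**Figure D5:**
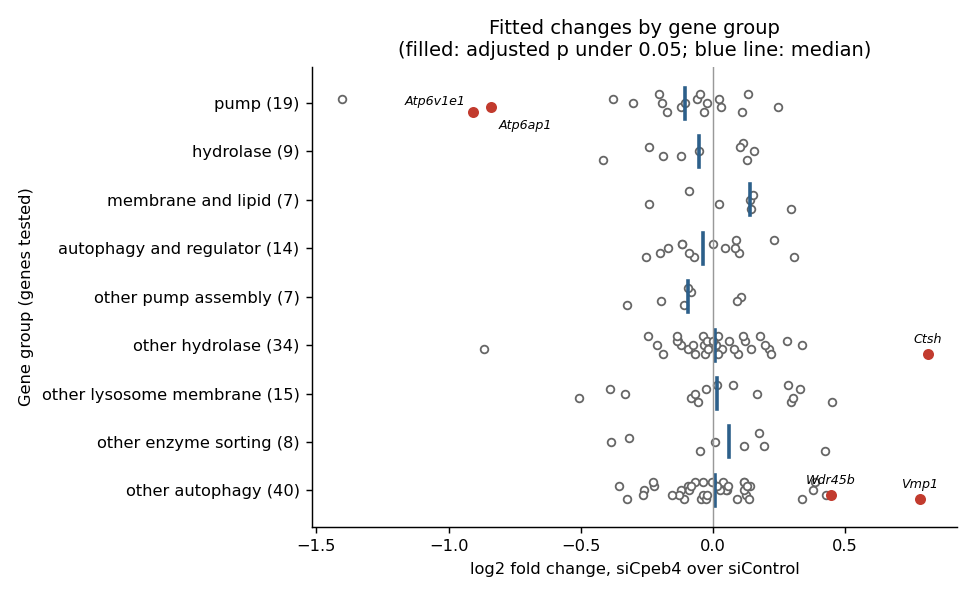
Log2 fold change (siCpeb4 over siControl) of each tested gene by group, with the number tested in brackets, medians as blue lines and genes with an adjusted p under 0.05 filled and named. The called genes are Atp6v1e1 and Atp6ap1 below 0, and Ctsh at 0.81, Vmp1 at 0.78 and Wdr45b at 0.44 above it.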

How the data were processed

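The deposited files hold raw counts of ribosome footprints per Ensembl gene, which the authors left unscaled. The tools named in the submitters' processing notes are Bowtie2, HTSeq 0.12 and STAR 2.7, and the genome build is Rnor_6.0. Their roles and the strand setting are not given in the sources used here. Per the names of the deposited files, counts are of unique reads of 29 to 34 nt, or 29 to 33 nt in siCpeb4 replicate 2, so genes with near-identical copies lose reads. The 5 summary rows were left out, of which reads without a feature made up 4.42% to 4.63% of reads.

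Groups were compared in R 4.3.3 by edgeR 4.0.16 (quasi-likelihood test), with TMM factors, filterByExpr at a minimum count of 10, the group as the only term, and two-sided p-values adjusted over 11335 genes. Standard errors came from the F statistic. Alternatives were library totals only, RLE and upper-quartile scaling, DESeq2 1.42.0, limma-voom (limma 3.58.1), no filter, at least 30 counts in 2 libraries, a replicate block and each library left out, where a lone library is assumed to vary like the other group. The fit was tested on simulated data.

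Members and lists were chosen with earlier results of these data known. Values in every library are given for called members, the 4 smallest p and the highest level of each role group, and some others by role. From each further list, called genes or the 2 smallest p are named, and Galc as the lowest value of the other hydrolases. No coding lengths were used here, so a ranking of genes by footprints is not corrected for length. Shares of isoforms within a subunit were not computed. Of 56 members, 45 matched a RefSeq promoter by symbol.

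No library was a copy of its replicate (chi-square per degree of freedom 5.12 for siCpeb4 and 2.91 for siControl).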

Additional observations from a re-analysis of the deposited data

How the results depend on the processing

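The calls of Atp6v1e1 and Atp6ap1 held under all 13 alternatives. Over all genes, the 386 calls became 188 with DESeq2, 606 without the low-count filter and 212 to 324 with 1 library left out, 212 being the count without siControl replicate 1. The pump had 2 calls under every alternative except the fit without siCpeb4 replicate 2, which also called Atp6v0d2 (2 to 3 calls with 1 library left out). Hydrolases, membrane and lipid proteins, and autophagy genes and regulators had 0 calls under all 13 (DESeq2 gave no adjusted p for Bnip3, Gla, Atp6v0d2 and Atp6v1g2), beside 1 unadjusted edgeR p under 0.05 in each group. Their median log2 fold changes with 1 library left out ran from -0.19 to 0.014 for the pump, -0.18 to 0.067 for hydrolases, 0.022 to 0.20 for membrane and lipid proteins and -0.089 to 0.053 for autophagy genes and regulators. The lowest membrane value and the highest autophagy value came without siCpeb4 replicate 2. Replicate numbers are shared between groups, and same-numbered libraries did not deviate together (r = -0.109). With 2 libraries a group this is 1 correlation, which cannot show whether the numbers pair cultures. The main fit used no pairing. A replicate block gave 400 calls over all genes, and a crossed block, chosen after seeing the data, gave 479. Neither changed a member's call.

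Of the 47 uncalled members, 26 changed sign under at least 1 alternative, and none of them passed the test on either side. With 1 library left out, the log2 fold changes of these 26 were Map1lc3b -0.37 to 0.018, Bnip3 -0.75 to 0.15, Map1lc3a -0.13 to 0.30, Becn1 -0.11 to 0.27, Tfeb -0.15 to 0.0067, Atg12 -0.20 to 0.074, Atg5 -0.14 to 0.21, Gabarapl1 -0.055 to 0.072, Ctsb -0.40 to 0.067, Ctsz -0.55 to 0.15 and Hexa -0.037 to 0.34. They were Ctsd -0.28 to 0.050, Ctsa -0.18 to 0.066, Gla -0.043 to 0.22, Psap -0.18 to 0.0070, Mcoln1 -0.036 to 0.30, Lamp1 -0.056 to 0.11, Atp6v1g2 -0.88 to 0.16 and Atp6ap2 -0.29 to 0.024. For the others they were Atp6v1b2 -0.27 to 0.053, Atp6v1g1 -0.20 to 0.11, Atp6v0e1 -0.18 to 0.070, Atp6v1c1 -0.077 to 0.019, Atp6v1d -0.025 to 0.091, Atp6v1h -0.16 to 0.10 and Atp6v0e2 -0.057 to 0.090. Gabarapl1 also took 0.028 with library totals only, 0.013 with upper-quartile scaling, 0.0013 with DESeq2, 0.0066 with the replicate block and 0.00025 with the crossed replicate block, and Atp6v1h took 0.0092 with library totals only. Of the 23 members that kept their sign, 16 moved by over 1.5 times with 1 library left out. Beside Atp6v0d2 (-6.92 to -0.54), their ranges were Atp6ap1l 0.030 to 0.45, Atp6v0b -0.30 to -0.11, Atp6v0c -0.30 to -0.060, Atp6v0d1 0.0097 to 0.28, Atp6v1a -0.37 to -0.0055, Ctsl 0.073 to 0.24, Neu1 -0.54 to -0.24 and Lamp2 0.022 to 0.25. For the rest they were Npc1 0.081 to 0.22, Npc2 -0.41 to -0.091, Sqstm1 -0.20 to -0.033, Tfe3 -0.26 to -0.00056, Ulk1 -0.32 to -0.078, Wipi2 0.053 to 0.12 and Atg7 0.072 to 0.47. The cause was not tested. With 2 libraries a group and standard errors of 0.10 to 0.17 for most members, changes of this size were not resolved.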
